A study of Rattus norvegicus with 10 samples.

Results

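The genes described here make, sense, move, store and export cholesterol. The set held 31 genes, taken by name from the sterol pathway. A probe set of the Affymetrix rat array was matched to a member when it named exactly 1 gene whose current symbol was the same. Current symbols came from the gene identifiers in the array annotation, where these matched a RefSeq gene. Of the 31 genes, 27 had a probe set of their own name among the 14217 genes measured. Hmgcs1, Npc1, Npc1l1 and Soat2 had none in the annotation used, so their expression is not analysed here. Where a gene had several probe sets, the brightest over all 10 arrays stood for it. Liver RNA came from 10 Harlan Sprague Dawley rats, with 1 array per animal. The 5 HMB rats ate feed with 10000 ppm HMB (2-hydroxy-4-methoxybenzophenone, or oxybenzone, an ultraviolet filter of sunscreens) for 13 weeks, and the 5 control rats ate feed with 0 ppm. All were kept on the same base diet, 5 to a cage, and neither sex nor age was given. The title and chemical label of HMB 1 say HMB although its dose label says 0 ppm, and it was kept with the HMB rats.

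Cells build cholesterol from acetyl-CoA. The early, mevalonate part of the route yields isoprenoid units, and the late part joins them into squalene, closes the rings and trims the first sterol to cholesterol. When sterols are scarce in the endoplasmic reticulum, the escort protein SCAP carries the SREBP2 precursor to the Golgi, where it is cut to an active transcription factor that raises genes of the whole route. INSIG proteins hold SCAP back when sterols are plentiful. The liver is a main site of this synthesis, and it also esterifies sterol for storage and loads it on to high-density lipoprotein through ABC transporters.

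The comparison asked whether these transcripts differed between livers of HMB rats and of control rats. None of the 27 genes passed the test (limma, Benjamini-Hochberg adjusted p under 0.05 over all 14217 genes), and the smallest adjusted p was 0.0714, for Sqle. The share called was 1.72% over all genes, and 0.957% were called lower in HMB. At an unadjusted p under 0.05 there were 9 members, or 33.3% of them, against 24.9% of all genes, and all 9 had a 95% interval below 0. Mean log2 signal was lower in HMB for 23 of the 27 (85.2%), against 53.5% of all genes, a count of 18 after cyclic loess or quantile normalization and 25 with every array set to the same median. The median difference of the members was -0.21 on the log2 scale and that of all genes -0.02. It was -0.12 after cyclic loess, -0.10 after quantile normalization and -0.25 at the same median, while 48.5%, 46% and 60.7% of all genes were then below 0. In 13 members all 5 HMB animals lay below the control mean, a count that was not made over all genes. The groups were fully apart only in Srebf2, and they overlapped there after cyclic loess or quantile normalization. All 5 HMB animals lay below all 5 controls in 3.48% of all genes, and above them in 2.64%.

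**Figure D1:**
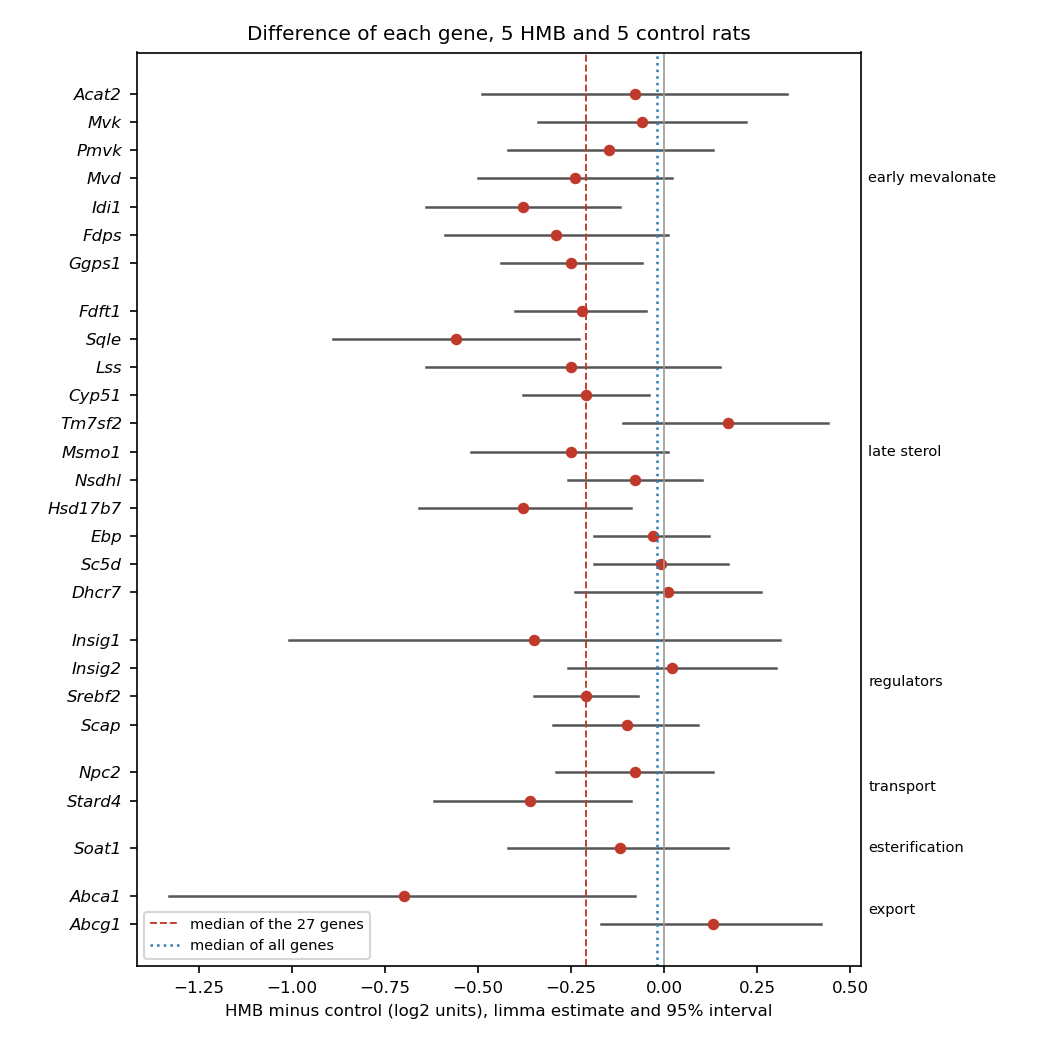
Each point is the limma estimate of HMB minus control in log2 units for 1 of 27 genes, with its 95% interval, grouped from the early mevalonate enzymes at the top to the exporters at the bottom (5 HMB and 5 control rats). The dashed line marks the members' median of -0.21 and the dotted line that of all genes, -0.02. The intervals of Idi1, Ggps1, Fdft1, Sqle, Cyp51, Hsd17b7, Srebf2, Stard4 and Abca1 lie below 0.

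The direction over all genes varied with level. When genes were split by mean signal into 4 equal bins, 25 members lay in the 2 upper bins, where most genes had a lower mean in HMB. In the brightest bin 17 of 20 members were below 0, with a median of -0.18, against 71.2% of all genes there, with a median of -0.07. In the next bin 4 of 5 were below 0, with a median of -0.21, against 77% and -0.12. The part of this dependence on level in the members' values was not tested apart from the normalizations above.

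**Figure D2:**
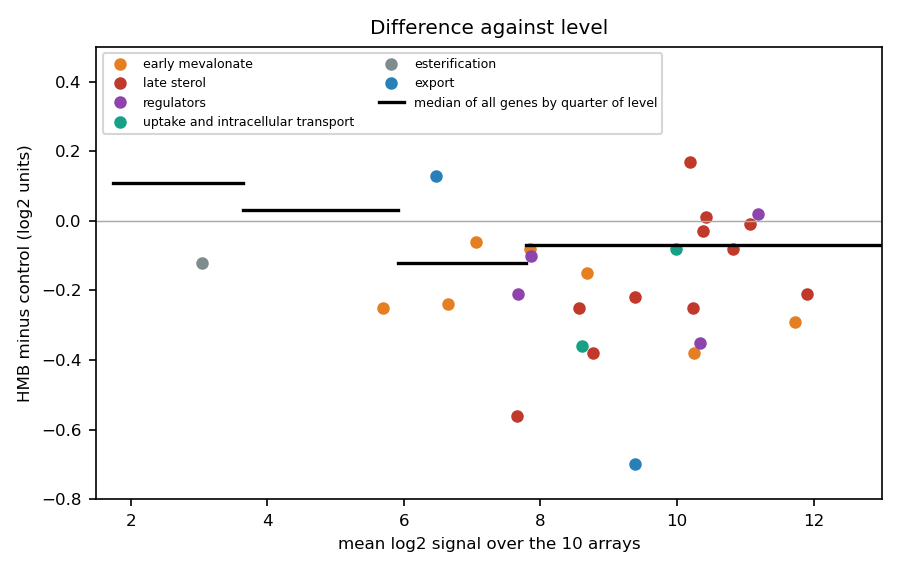
The horizontal axis is mean log2 signal over the 10 arrays and the vertical axis is HMB minus control in log2 units. Points are the 27 genes coloured by step, and black bars are the median difference of all genes in each of 4 bins of level (0.11, 0.03, -0.12 and -0.07 from dim to bright).

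Among the early mevalonate enzymes all 7 measured had a lower mean in HMB, 0 of 7 were called, and the median difference was -0.24. Without control 5 all 7 were still below 0 and the median was -0.14. Leaving out control 1, HMB 3, HMB 4 or HMB 5 alone gave 6 of 7 below 0. With HMB 3 to 5 left out 4 of 7 were below 0, with a median of -0.14. Adjustment for the poly-A control signal, described further on, also gave 4 of 7 and -0.14. After cyclic loess or quantile normalization 5 of the 7 were below 0, with Acat2 and Mvk then above it. Idi1, the isomerase that makes the reactive isoprenoid unit, had log2 signals of 10.16, 10.10, 10.16, 9.90 and 9.99 in HMB 1 to 5, against 10.71, 10.24, 10.16, 10.35 and 10.74 in control 1 to 5. Only control 3 came down to the HMB range. The difference was -0.38 ± 0.12 (SE, n = 5 per group, limma adjusted p = 0.0961), or 0.769-fold, with a 95% interval from -0.64 to -0.12. A dimmer Idi1 probe set gave -0.36.

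Ggps1 makes geranylgeranyl diphosphate, the lipid attached to small GTPases, and so leads away from sterols. Its log2 signals were 5.63, 5.47, 5.72, 5.62 and 5.42 in the HMB rats, against 5.68, 5.80, 5.93, 5.72 and 5.99 in the controls. HMB 3 alone reached into the control range, and the difference was -0.25 ± 0.09 (SE, n = 5 per group, limma adjusted p = 0.113). Its other probe sets, both dimmer, gave 0.04 and -0.29.

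Fdps, which makes farnesyl diphosphate at the branch point, had log2 signals of 11.84, 11.63, 11.79, 11.24 and 11.41 in HMB and 12.03, 11.78, 11.49, 12.00 and 12.05 in control. HMB 4 and HMB 5 were the lowest of the 10. The difference was -0.29 ± 0.14 (SE, n = 5 per group, limma adjusted p = 0.213). Mvd, the decarboxylase, averaged 6.52 ± 0.08 in HMB and 6.76 ± 0.28 in control (SD, n = 5 each), so the controls spread more widely, and the groups overlapped (adjusted p = 0.237). Its difference was -0.24, and -0.14 without control 5. Pmvk and Mvk, the mevalonate kinases, differed by -0.15 and -0.06. Acat2 is the cytosolic thiolase that opens the route, not the sterol ester synthase once given the same name. It differed by -0.08, with a 95% interval from -0.49 to 0.33. In Acat2 each group split into high and low animals. HMB 1 to 3 lay between 8.02 and 8.10 and HMB 4 and 5 at 7.51 and 7.37, while control 1, 4 and 5 lay between 8.01 and 8.23 and control 2 and 3 at 7.53 and 7.47.

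**Figure D3:**
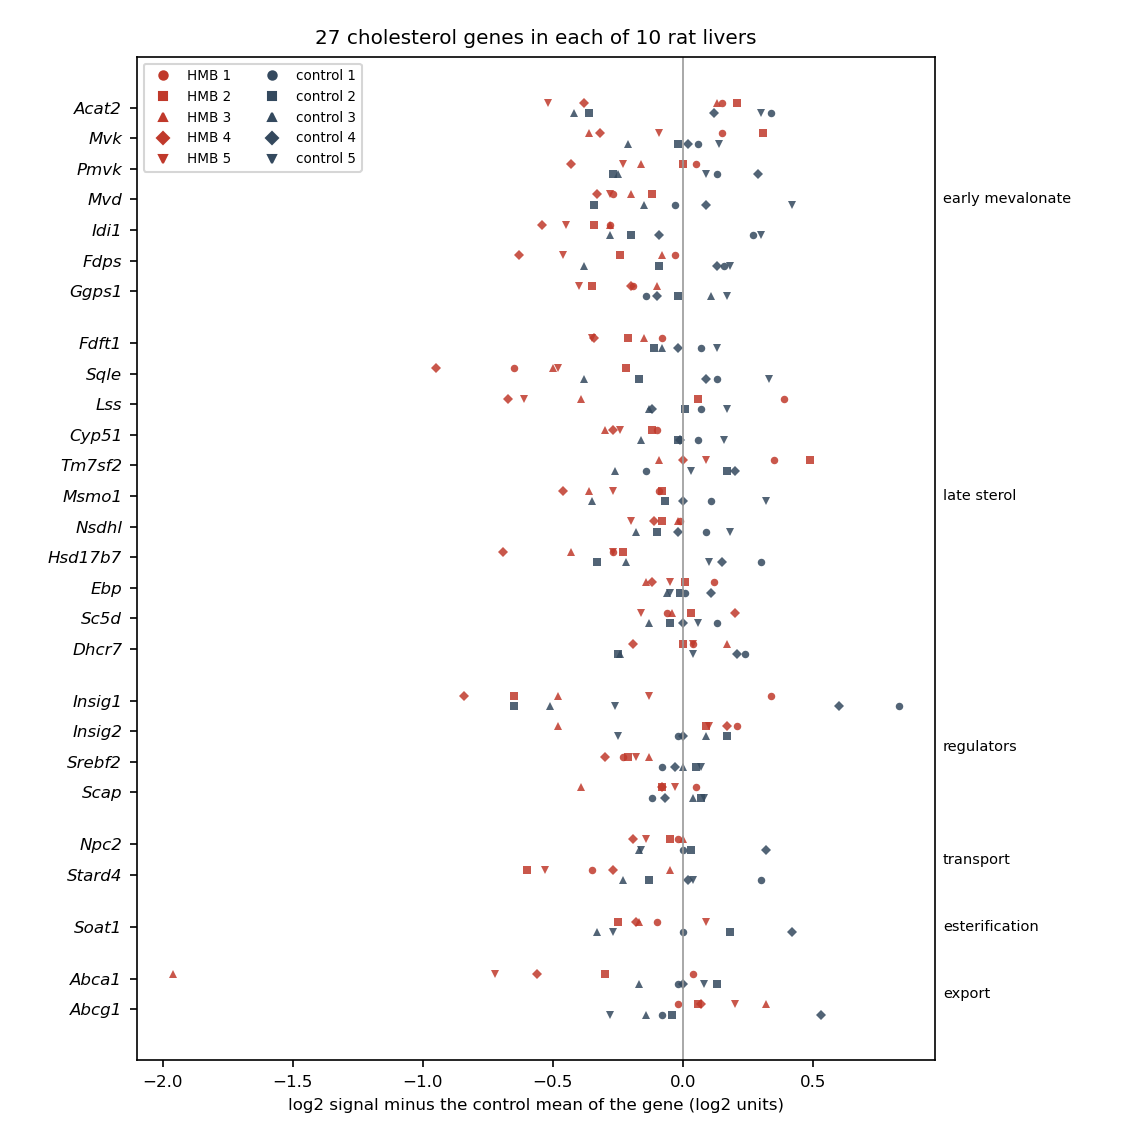
Each row is a gene and each symbol an animal, with the log2 signal shown relative to that gene's control mean (0 on the horizontal axis, log2 units). HMB animals stand on the upper line of a row and controls on the lower. The groups are fully apart in Srebf2, HMB 3 stands far to the left in Abca1, and Insig1 spreads most among controls.

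Of 11 late sterol enzymes, all measured, 9 had a lower mean in HMB (7 after cyclic loess or quantile normalization), 0 were called, and the median difference was -0.21. Sqle, squalene epoxidase, a rate-limiting step that brings oxygen into the route, had log2 signals of 7.29, 7.72, 7.44, 6.99 and 7.46 in HMB, against 8.07, 7.77, 7.56, 8.03 and 8.27 in control. HMB 2 was the only HMB animal within the control range, above control 3. The difference was -0.56 ± 0.15 (SE, n = 5 per group, limma adjusted p = 0.0714), or 0.679-fold, with a 95% interval from -0.89 to -0.23. It ran from -0.65 to -0.43 over the other settings, none of which called it.

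Fdft1, squalene synthase, had log2 signals of 9.42, 9.29, 9.35, 9.16 and 9.15 in HMB and 9.57, 9.39, 9.42, 9.48 and 9.63 in control. Only HMB 1 reached the control range, and the difference was -0.22 ± 0.08 (SE, n = 5 per group; limma, adjusted p = 0.122). Its dimmer probe set gave -0.27.

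Cyp51, the demethylase that acts on lanosterol, was among the brightest members. Its log2 signals were 11.90, 11.88, 11.70, 11.73 and 11.76 in HMB and 12.06, 11.98, 11.84, 11.99 and 12.16 in control. HMB 1 and HMB 2 lay just above control 3, and the difference was -0.21 ± 0.08 (SE, 5 rats per group, adjusted p = 0.130 in limma), with -0.24 from its dimmer probe set.

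Hsd17b7, a ketosteroid reductase of sterol demethylation, had log2 signals of 8.69, 8.73, 8.53, 8.27 and 8.69 in HMB and 9.26, 8.63, 8.74, 9.11 and 9.06 in control. Control 2 stood among the HMB animals. The difference was -0.38 ± 0.13 (SE, 5 rats per group, adjusted p = 0.117 in limma), against -0.26 in its dimmer probe set. Msmo1, the methyl sterol oxidase of the same steps, differed by -0.25 ± 0.12 (adjusted p = 0.218).

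Lss, which closes the sterol rings, divided the HMB rats. Its log2 signals were 9.08, 8.75, 8.30, 8.02 and 8.08 in HMB 1 to 5, against 8.76, 8.70, 8.56, 8.57 and 8.86 in control 1 to 5. HMB 1 was the highest of all 10 animals, and HMB 3 to 5 were the 3 lowest. The difference over all animals was -0.25 ± 0.18 (SE, 5 rats per group, adjusted p = 0.407 in limma). Without HMB 1 and HMB 2 it was -0.56 and passed (adjusted p = 0.0319), the only member called under any setting, and without HMB 3 to 5 it was 0.22.

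In the last enzymes of the route the chosen probe sets lay near 0. Ebp, Sc5d and Dhcr7, an isomerase, a desaturase and the final reductase, differed by -0.03, -0.01 and 0.01, and their 95% intervals all lay between -0.24 and 0.26. These signs turned under other normalizations, Ebp and Sc5d with cyclic loess or quantile and Dhcr7 with the same median. Of the other Sc5d probe sets, 1389111_at gave 0.01, while 1387926_at gave -0.18 at 10.26 in HMB and 10.44 in control (limma adjusted p = 0.240 over probe sets). Nsdhl, a sterol decarboxylase, was at -0.08 ± 0.08 (SE, 5 rats per group, adjusted p = 0.552 in limma). Tm7sf2, a sterol reductase, had the highest estimate of the 18 enzymes, 0.17 ± 0.13 (adjusted p = 0.423), with HMB 1 at 10.46 and HMB 2 at 10.60 above all controls (9.85 to 10.31).

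Among the regulators 0 of 4 were called and 3 were below 0 (2 after cyclic loess or quantile normalization, and 1 with the probe set of largest SD). Srebf2, which encodes SREBP2, had log2 signals of 7.54, 7.56, 7.64, 7.47 and 7.59 in HMB and 7.69, 7.82, 7.77, 7.74 and 7.84 in control. Every HMB value lay below every control value, with an SD of 0.06 in each group. The difference was small, -0.21 ± 0.06 (SE, n = 5 per group, limma adjusted p = 0.0874), or 0.863-fold. Srebf2 was the only 1 of 27 members so separated, a share close to the 3.48% of all genes. In its own bin of level 213 of 3554 genes had all HMB animals below all controls. The groups of Srebf2 overlapped after cyclic loess or quantile normalization, where 0 members had all HMB animals below all controls. After cyclic loess normalization the difference was -0.10 (limma adjusted p = 0.461), and a far dimmer second probe set, at 2.69 in HMB and 2.56 in control, gave 0.12. The mean of its probe sets differed by -0.04.

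Insig1, the sterol-responsive brake on SCAP and itself an SREBP target, was the most variable member among controls. Its log2 signals were 10.85, 9.86, 10.03, 9.67 and 10.38 in HMB and 11.34, 9.86, 10, 11.11 and 10.25 in control. Control 1, control 4 and HMB 1 were the 3 highest, and the groups overlapped widely. The difference was -0.35 ± 0.30 (SE, n = 5 per group, limma adjusted p = 0.477), with a 95% interval from -1.01 to 0.31. Single animals moved it, to -0.53 without HMB 1, -0.23 without HMB 4, -0.15 without control 1 and -0.20 without control 4. Insig2, the constitutive partner, averaged 11.20 ± 0.28 in HMB and 11.18 ± 0.16 in control (SD, n = 5 each), with HMB 3 at 10.70, below every other animal. Scap was at -0.10 ± 0.09 (SE, 5 rats per group, adjusted p = 0.480 in limma), and again HMB 3, at 7.52, was lowest.

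Promoters of 4 members are shown because genes under SREBP2 often pair its site with a CCAAT box, which binds NF-Y. All 4 had a lower mean in HMB, but so did most members (23 of the 27 measured). RefSeq promoters of build GRCr8 matched 25 of the 31 genes, and the windows searched ran from 250 bases before the start to 50 after it. Printed are the 250 bases before the start, 5′ to 3′ on the gene's strand, with capitals for CCAAT on either strand (ATTGG on the other) and for TCACNCCA. Srebf2 lies at chr7:115543057-115543306 (plus strand), Idi1 at chr17:66547525-66547774 (minus), Hsd17b7 at chr13:84722755-84723004 (minus) and Msmo1 at chr16:29746863-29747112 (plus).
Srebf2: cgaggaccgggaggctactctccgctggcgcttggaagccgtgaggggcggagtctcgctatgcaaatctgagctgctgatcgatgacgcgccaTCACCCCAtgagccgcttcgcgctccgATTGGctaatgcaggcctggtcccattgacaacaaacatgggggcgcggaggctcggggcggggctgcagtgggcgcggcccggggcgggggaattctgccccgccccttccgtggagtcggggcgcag
Idi1: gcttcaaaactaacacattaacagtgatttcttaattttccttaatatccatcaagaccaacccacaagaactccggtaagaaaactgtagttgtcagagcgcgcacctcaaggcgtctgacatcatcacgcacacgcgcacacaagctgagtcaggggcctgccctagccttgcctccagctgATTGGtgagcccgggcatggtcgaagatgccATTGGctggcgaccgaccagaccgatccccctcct
Hsd17b7: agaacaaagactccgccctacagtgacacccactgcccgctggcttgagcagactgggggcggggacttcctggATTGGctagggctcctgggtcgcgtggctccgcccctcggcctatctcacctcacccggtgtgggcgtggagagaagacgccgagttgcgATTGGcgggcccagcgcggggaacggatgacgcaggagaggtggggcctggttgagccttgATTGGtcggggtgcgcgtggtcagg
Msmo1: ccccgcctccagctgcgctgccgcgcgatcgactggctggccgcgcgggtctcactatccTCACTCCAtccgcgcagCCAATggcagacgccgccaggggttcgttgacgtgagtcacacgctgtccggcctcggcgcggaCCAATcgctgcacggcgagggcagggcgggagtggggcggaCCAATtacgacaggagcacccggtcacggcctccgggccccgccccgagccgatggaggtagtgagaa

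CCAAT on either strand stood in 19 of the 25 member promoters (76%), against 37.5% of all 33469 promoters. The GC box GGGCGG stood in 20 (80%), against 33.1%. The 33469 promoters were not chosen by expression in liver, while 25 of the 27 measured members lay in the 2 upper bins of level. Promoters of other genes of like level were not compared. Among the early and late enzymes 13 of 16 held CCAAT, from 1 copy in Ggps1, Lss and Sc5d to 5 in Mvk and Nsdhl. Idi1 had 2 copies, Hsd17b7 and Msmo1 had 3 each, and Srebf2 had 1. The longer sterol element TCACNCCAC and the E-box form TCACNTGA stood in 0 of the 25, against 1.12% and 3.93% of all promoters. The shorter TCACNCCA, which overlaps the first of these and was searched after it gave no match, stood in Srebf2 and Msmo1, 2 of 25 (8%) against 3.89%. Both are among the 4 promoters printed, so those 4 do not stand for the members. The promoters of Acat2, Cyp51, Dhcr7, Scap, Npc1 and Abca1 held neither CCAAT nor TCACNCCA. In Srebf2 the TCACNCCA match began 156 bases before the start, with the CCAAT box following at 129. A match is a run of letters, not a shown site, and a missing match says only that these letters are not in the window.

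Of the transport genes, Stard4, a soluble carrier that moves sterol between membranes and the endoplasmic reticulum, had log2 signals of 8.44, 8.19, 8.74, 8.52 and 8.26 in HMB and 9.09, 8.66, 8.56, 8.81 and 8.83 in control. HMB 3 alone lay within the control range. The difference was -0.36 ± 0.12 (SE, 5 rats per group, adjusted p = 0.110 in limma), or 0.779-fold. Its other probe sets, both dimmer, gave -0.39 and -0.02. Npc2, the lysosomal protein that hands sterol on from degraded lipoprotein, differed by -0.08 ± 0.10 (adjusted p = 0.609). For esterification, Soat1, the sterol ester synthase found in most cells, was dim at 2.99 ± 0.13 in HMB and 3.11 ± 0.31 in control (SD, n = 5 each), and its groups overlapped (limma adjusted p = 0.587).

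The exporter Abca1, which loads sterol on to lipid-poor apolipoprotein A-I, gave opposite answers from its own probe sets. The brightest, 1382431_at, had log2 signals of 9.78, 9.44, 7.78, 9.18 and 9.02 in HMB, against 9.72, 9.87, 9.57, 9.74 and 9.82 in control. HMB 1 lay among the controls, the other HMB animals lay below all of them, and HMB 3 lay farthest down. The HMB SD was 0.76 and the control SD 0.11. The difference was -0.70 ± 0.29 (SE, 5 rats per group, adjusted p = 0.157 in limma). It was -0.39 without HMB 3 (adjusted p = 0.142), -0.14 without HMB 3 to 5, -1.08 without HMB 1 and HMB 2 (adjusted p = 0.0506), -0.90 with HMB 1 counted as a control (adjusted p = 0.0805) and -0.07 after adjustment for the poly-A control signal described further on.

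The second Abca1 probe set, 1383355_at, went the other way. Its log2 signals were 8.37, 8.78, 8.83, 8.57 and 8.55 in HMB, against 8.26, 8.28, 8.11, 8.18 and 8.27 in control. Every HMB value lay above every control value, and HMB 3 was here the highest of all animals. Of all genes, at 1 probe set each, 2.64% had all HMB animals above all controls. The difference was 0.40 ± 0.10 (SE, n = 5 per group, limma adjusted p = 0.0523 over 31042 probe sets, of which 1.7% were called). At 1394490_at the difference was -0.55, with HMB 3 at 4.64 against 6.25 to 6.71 in controls. At 1384381_at it was 0.21. Averaged over its probe sets Abca1 differed by -0.16 (adjusted p = 0.579), so these arrays settle no direction for its transcript. Where on the transcript each probe set lies is not given in the sources used here.

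**Figure D4:**
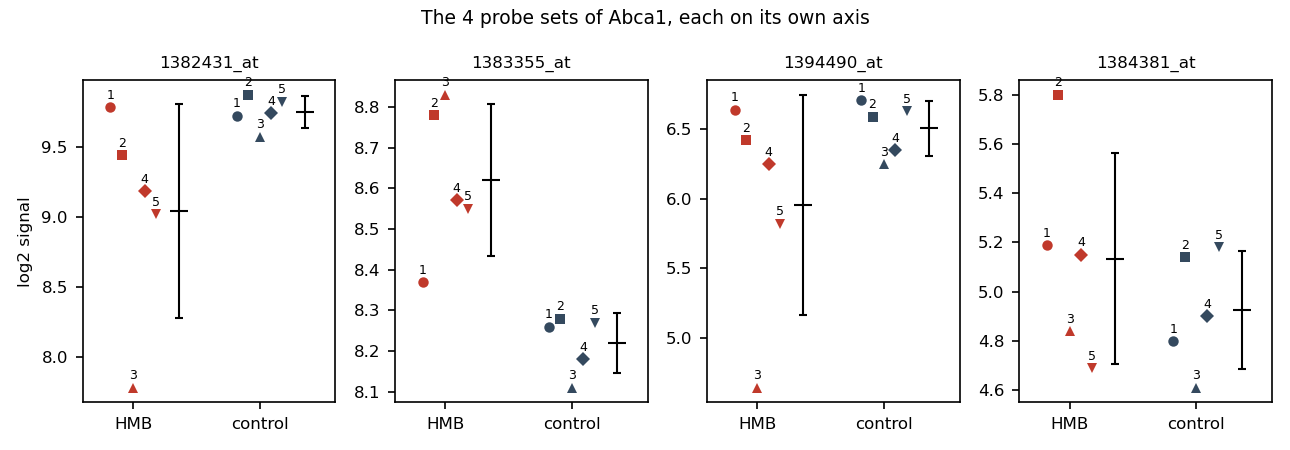
Each panel is 1 Abca1 probe set with its own vertical axis of log2 signal, HMB rats on the left and controls on the right. Numbers are animals and bars are the mean ± SD of 5. HMB 3 is lowest at 1382431_at and 1394490_at and highest at 1383355_at.

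Abcg1, which passes sterol to mature high-density lipoprotein, averaged 6.54 ± 0.13 in HMB and 6.41 ± 0.31 in control (SD, n = 5 each, limma adjusted p = 0.574). Control 4, at 6.94, was the highest animal. Abca1, Abcg1, Npc2 and Soat1 are also strong in macrophages, so Kupffer cell and macrophage markers are set beside them. The mean of 6 markers ran from 7.37 to 8.17 in HMB and from 6.65 to 8.54 in control, highest in control 4 and, among HMB rats, in HMB 3, and 0 of the 6 were called. Their part in the exporters' values was not tested. In whole liver, fewer cells of a type and less RNA per cell cannot be told apart.

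The members agreed across probe sets elsewhere more than in Abca1. Among 50 probe sets of members 0 were called (limma, over all probe sets) and 37 were below 0. Of 23 further probe sets, 15 had the sign of the one chosen. Idi1, Fdft1, Cyp51, Hsd17b7, Lss and Nsdhl had all their probe sets below 0. The disagreements outside Abca1 included dim probe sets of Srebf2, Scap, Soat1, Ggps1 and Abcg1. They also included a bright one of Sc5d, 1389111_at, at 10.46 in both groups, where both estimates lay near 0.

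Other genes of the pathway, taken from lists by their role, had 0 called in all 5 lists, against 1.72% of all genes. Over all genes 53.5% were below 0. Most genes of each list lay in the 2 upper bins of level. There 77% (next to brightest) and 71.2% (brightest) of all genes were below 0, with medians of -0.12 and -0.07. In the first list, which mixes enzymes of synthesis with hydroxylases that act on finished cholesterol, all 5 measured of 9 were above 0. Cyp27a1, a hydroxylase of bile acid synthesis, was at 0.15. Faxdc2 was at 0.24 and Ch25h, a hydroxylase that makes an oxysterol, at 0.16 (limma adjusted p from 0.253 to 0.351 for the 3 genes). Faxdc2 and Ch25h were dim, at 3.11 and 3 in HMB and 2.87 and 2.84 in control. In the dimmest bin, which held both, 21.2% of all genes were below 0, with a median of 0.11. Of 9 genes of SREBP processing and sterol-sensed degradation 8 were below 0, with a median of -0.11. Mbtps2, the protease that makes the second cut of SREBP, was at -0.21 (adjusted p = 0.150), Erlin1 at -0.16 and Rnf145 at -0.30. Of 10 genes that use isoprenoids for other ends 9 were below 0, with a median of -0.14. The medians of these 2 lists stood near those of all genes in the upper bins. Dolk, the dolichol kinase, was at -0.21 with all 5 HMB animals below all controls (adjusted p = 0.114), Coq2 of ubiquinone synthesis at -0.26 and Dhdds of dolichol synthesis at 0.29. The separation seen in Dolk stood in 3.48% of all genes, and in 191 of 3554 genes of the brightest bin, which held Dolk.

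Of 11 other genes of uptake and the lysosome 7 were below 0. Tmem97, a sterol-regulated membrane protein, was at -0.25 (limma adjusted p = 0.138), Scarb2 at -0.32 and Lipa, the lysosomal lipase that frees sterol from its esters, at 0.18. Of 11 other export genes and LXR targets 3 were below 0, with a median of 0.14. Apoa1, the acceptor protein of Abca1, was at -0.25 (adjusted p = 0.147), Abcg8, of biliary sterol secretion, at 0.22 from a dim 2.90 in HMB and 2.68 in control, and Lpcat3 at 0.17.

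Transcript signals of the enzymes were also averaged within each animal. Averaged over the 18 early and late enzymes, the deviation from the control mean was -0.04, -0.05, -0.18, -0.36 and -0.27 on the log2 scale in HMB 1 to 5, against 0.10, -0.12, -0.21, 0.06 and 0.17 in control 1 to 5. The ranges overlapped, since control 2 and control 3 lay below HMB 1 and HMB 2. The means were -0.18 ± 0.14 in HMB and 0 ± 0.16 in control (SD, n = 5 each). HMB 4 had the lowest value of all 10 animals in 10 of the 27 genes, HMB 3 in 6 and HMB 5 in 5, while control 5 had the highest in 11.

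Array measures stood apart in some of the same animals. The signal of GAPDH 3′ probe sets minus 5′ ones, which rises as RNA is shortened, was 1.31, 1.38, 1.97, 2.09 and 1.90 in HMB 1 to 5, against 1.54, 1.38, 1.76, 1.77 and 1.61 in the controls. Poly-A control transcripts minus hybridisation controls stood at -1.92, -1.96, -1.54, -1.78 and -1.47 in HMB, against -2.19 to -1.90 in control. HMB 3 to 5, the 3 HMB rats with the lowest mean signals of enzyme transcripts, were the highest of all animals on both measures. The actin 3′ minus 5′ signal did not set all of them apart, at 3.16, 3.18, 3.62, 3.96 and 3.58 in HMB 1 to 5, against 3.49, 3.25, 3.64, 3.64 and 3.54 in control 1 to 5. Only HMB 4 lay above every control there. Over all animals the median difference of the 18 enzymes was -0.22, with 16 below 0. It was -0.06, with 11 below 0, when HMB 3 to 5 were left out, and -0.27, with 17 below 0, when HMB 1 and 2 were left out. It was -0.03, with 9 below 0, after adjustment for the poly-A signal. That signal was higher in HMB 3 to 5 than in every control. The adjustment therefore also takes up part of the group difference, and the 2 cannot be told apart. The part of these measures in the members' values was not tested further. Hepatocyte markers were bright in every animal (Alb at 14.57 in HMB and 14.61 in control, mean of 7 markers from 12.29 to 12.49), with 0 of 7 called. Erythroid markers, none of 3 called, averaged from 6 to 6.49 in HMB and from 5.60 to 6.14 in control. Of 3 enterocyte markers, all dim, Alpi was called higher in HMB, at 0.32 (limma adjusted p = 0.0384). Their part in the members' values was not tested. Rats of a group may have shared a cage, and cage and HMB then cannot be told apart.

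**Figure D5:**
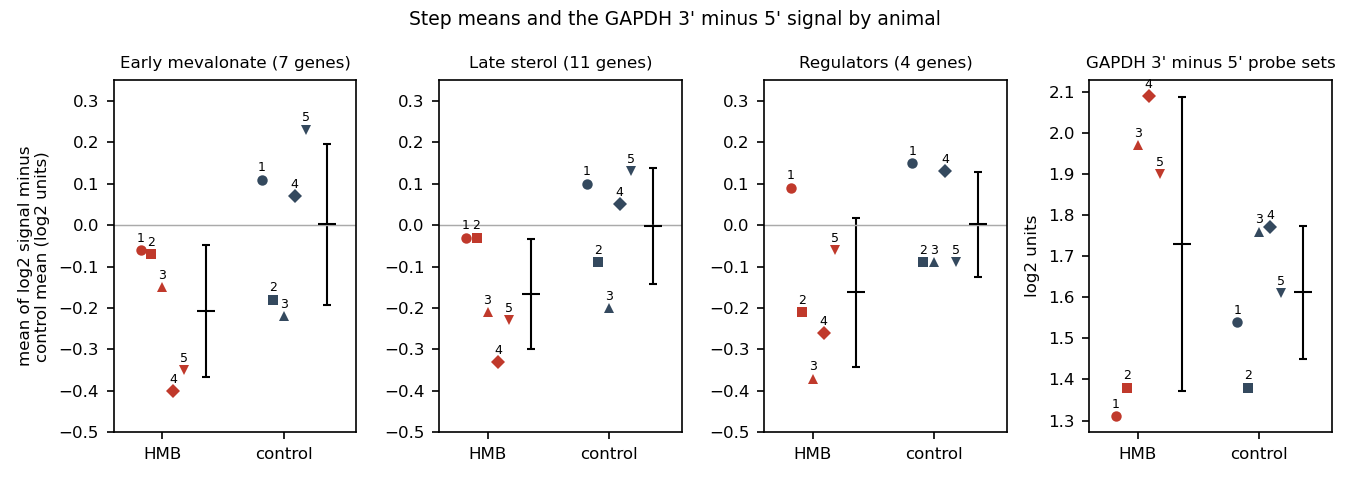
The first 3 panels show each animal's mean log2 signal relative to the control mean, over the early enzymes, the late enzymes and the regulators, and the last panel shows the GAPDH 3′ minus 5′ signal in log2 units (HMB left, control right, bars mean ± SD of 5). HMB 3, 4 and 5 are low over the late enzymes, at -0.21, -0.33 and -0.23, and high for GAPDH.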

How the data were processed

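Expression was measured in liver of 10 rats, 5 per group, on 1 array each. The authors deposited log2 signals for 31099 probe sets, made with RMA (no version stated) per the submitters' processing notes. Groups come from the titles. Replicate numbers follow deposition order. Nothing says how animals were randomised or whether arrays were processed in batches. The p-values set the difference between groups against the spread between these animals. If each group shared 1 cage, that spread lies within cages only. Apart from 57 control probe sets, used only as array measures, there were 31042. Of these 20826 named exactly 1 gene, 436 several and 9780 none. Gene identifiers gave current symbols from the RefSeq table of GRCr8 (20758 matched), for 14217 genes. No 2 of the arrays held identical values in 45 pairs, and correlations ran from 0.987 to 0.995. The number of arrays limits the precision.

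Tests used limma 3.58.1 in R 4.3.3 (lmFit, eBayes with the default prior, no covariate), HMB minus control over all genes, with Benjamini-Hochberg adjustment and a threshold of 0.05, and no filter on low signals. With the lowest 25% of genes left out 26 members stay, and with the lowest 50%, 25. The test was checked on simulated data with independent noise, without effects shared by the genes of an animal. It recovered 57% of 100 changes of 0.5 and 93% of 100 changes of 1 on the log2 scale. Smaller differences, such as the members' median of -0.21, were not simulated. Alternatives changed the normalization, the filter, the prior, array weights, the poly-A covariate, the probe set per gene, the threshold and the animals included. The members, lists and alternatives were chosen with earlier results of these data known, so no test was made over the list. The genes named were all members and, of each other pathway list, the 3 with the smallest p. Dolk's separation of groups and marker genes are given in addition. Figures used matplotlib 3.10.9 in Python 3.11.15.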

Additional observations from a re-analysis of the deposited data

Results flagged for a closer look

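Within each group of 5, the animal farthest from the others was set against the group's range for all 27 genes, 54 groups in all, of which chance picks about 1 in 20. One stood apart by that measure. Insig2 in HMB 3 had a log2 signal of 10.70, with the nearest other HMB animal at 11.27, a gap of 0.816 of the range, above Dixon's 95% limit for 5 samples. HMB 3 was also the lowest animal for Scap and for Abca1 at 1382431_at, where the gap did not reach that limit.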

How the results depend on the processing

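The members called numbered 0 under 24 of 25 other settings and 1 (Lss) with HMB 1 and HMB 2 left out, where Lss was at -0.56. The members below 0 numbered from 17 (poly-A covariate) to 25. Their median kept its sign throughout and was smaller than in the reported fit by more than the spread between HMB animals in 2 settings, at -0.06 with the poly-A covariate and -0.09 with HMB 3 to 5 left out. The poly-A signal differed between the groups, so that covariate and HMB cannot be told apart. The background was less stable. Against 244 genes called in the reported fit, limma called 82 after cyclic loess, 62 after quantile normalization, 156 with the lowest 50% of levels left out, 659 with array weights, 704 without HMB 1 and 2, 30 with HMB 1 counted as a control, 0 with the poly-A covariate (1914 at an unadjusted p under 0.05), 0 with HMB 3 to 5 left out (1612) and 0 at an adjusted p of 0.01 (3538). Leaving out 1 animal at a time gave from 0 genes (without control 2, control 3, control 5 or HMB 2, with 2772 to 3434 at an unadjusted p under 0.05) to 1014 (without control 1). Leaving out HMB 4, or HMB 5, gave 1, control 4 gave 15 and HMB 3 gave 157. No paired analysis was possible because the replicate numbers pair no animals.

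Of 618 member values under other settings, 47 changed sign, all between -0.07 and 0.27 and none called. After cyclic loess these were Acat2 at 0.04, Mvk at 0.06, Ebp at 0.02, Sc5d at 0.03 and Scap at 0.01, and after quantile normalization Acat2 at 0.05, Mvk at 0.08, Ebp at 0.01, Sc5d at 0.00 and Scap at 0.01. At the same median they were Dhcr7 at -0.03 and Insig2 at -0.02, and with array weights Sc5d at 0.01. With the poly-A covariate they were Acat2 at 0.27, Mvk at 0.21, Pmvk at 0.00, Lss at 0.17, Nsdhl at 0.01, Ebp at 0.05, Sc5d at 0.11 and Abcg1 at -0.03. The probe set with the largest SD gave Srebf2 0.12 and Scap 0.03. HMB 1 counted as a control gave Sc5d 0.02, Dhcr7 0.00 and Insig2 -0.06. With HMB 3 to 5 left out they were Acat2 at 0.18, Mvk at 0.23, Pmvk at 0.03, Lss at 0.22 and Ebp at 0.07, and with HMB 1 and 2 left out Tm7sf2 at 0.00 and Insig2 at -0.07. With 1 animal left out Acat2 ran from -0.18 to 0.03, Sc5d ran from -0.06 to 0.03, Dhcr7 ran from -0.05 to 0.07, Insig2 ran from -0.04 to 0.14 and Mvk ran from -0.15 to 0.01. The cause of these changes was not tested. Single animals also moved values that kept their sign by over 1.5 times in Abca1, Abcg1, Insig1, Lss, Mvd, Pmvk, Scap, Soat1 and Tm7sf2, among members at least 0.1 from 0. Soat1 had the lowest mean level of the members, 3.05.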
